A study of Mus musculus with 8 samples.

Results

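Genes for secreted protease inhibitors of the Kazal, WAP and Kunitz types were read from RNA-seq of liver and epididymal white adipose tissue (eWAT) of mice labelled Crtc1-/- or Crtc1+/+. The members are all genes in the count matrix whose symbol begins with Spink, Wfdc, Spint, Eppin or Slpi, which gave 36 of 19348 genes. They comprised 11 Kazal genes (the Spink genes and Spinkl), 20 WAP genes (the Wfdc genes, Slpi and Eppin) and 5 Kunitz genes (Spint1 to Spint5). The 8 libraries fall into 4 groups of 2, liver and eWAT of each genotype, all from C57BL/6 males aged 12 weeks that were killed after a 16 h fast. According to the study's methods, the Crtc1-/- line was made with CRISPR/Cas9 guides to exons of Crtc1, and the deficiency is whole-body, with wild-type littermates as controls, and liver and eWAT were taken from the same mice of each genotype. Libraries are named below by these labels, as wild-type-labelled (Crtc1+/+) and knockout-labelled (Crtc1-/-), and pairs of values give replicate 1 and then replicate 2. Each library held 16560085 to 19721481 counts, so that 3 counts, taken here as the floor of detection, correspond to 0.152 to 0.181 CPM. Levels are given in CPM, the count of a gene per 1000000 counts of its library, and levels of different genes are compared only in FPKM, which also divides by transcript length. Intervals and floors cover counting error only.

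A protease inhibitor of these types is a small secreted protein or a cell-surface protein built from 1 or several disulfide-bonded domains, each of which can block the active site of a serine protease. Kazal domains include the pancreatic trypsin inhibitor encoded by Spink1, WAP (whey acidic protein) domains include the elastase inhibitor Slpi, and Kunitz domains include the epithelial inhibitors Spint1 and Spint2, which act on the membrane proteases matriptase (St14) and prostasin (Prss8). Many of the genes lie in clusters that are known for expression in the epididymis and other parts of the male reproductive tract, where sperm mature, and Eppin is a sperm-surface protein. eWAT is the fat pad that lies against the epididymis.

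The genes are not scattered. In the RefSeq annotation of GRCm38.p6, the build named in the submitters' processing notes, 20 members lie on chromosome 2, 8 on chromosome 18, 3 on chromosome 11 (Wfdc17, Wfdc18 and Wfdc21) and 1 each on chromosomes 4, 5, 7, 8 and 9. Of those on chromosome 2, 14 form an unbroken block of 183280 bp from the start of Wfdc2 to the end of Wfdc3 (chr2:164562715-164745994), with 0 other genes of the count matrix between them. The order along the block is Wfdc2, Spint3, Wfdc6a, Eppin, Wfdc8, Wfdc6b, Wfdc16, Wfdc9, Wfdc10, Wfdc11, Wfdc13, Spint4, Spint5 and Wfdc3, so that WAP and Kunitz genes are interspersed. Eppin, Wfdc6a and Wfdc6b each encode a WAP and a Kunitz domain in 1 protein. Neighbours overlap in 3 places: Spink10 and Spink13 on chromosome 18 by 56843 bp, Wfdc9 and Wfdc10 by 1298 bp, and Wfdc6b and Wfdc8 by 116 bp. Whether the counting used strand is not given in the sources used here, so reads from overlapping neighbours may not have been kept apart.

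The labels and tissues were checked first. Crtc1 (NCBI Gene 382056), a coactivator of the transcription factor CREB, had 36.9 and 36.9 CPM in wild-type-labelled eWAT against 57.6 and 27.5 CPM in knockout-labelled eWAT. Liver had 11.6 and 9.61 CPM (wild-type-labelled) against 22.1 and 18.6 CPM (knockout-labelled). The count of Crtc1 was therefore not lower in either tissue (log2 fold change 0.48 ± 0.37, adjusted p = 0.396, in eWAT and 0.89 ± 0.27, adjusted p = 0.184, in liver), but a count over the whole gene includes exons outside the deletion, and genotypes are given as labelled. The 12 hepatocyte markers held 19.5 to 23.4% of counts in liver. In eWAT they held 0.126 to 0.654% in 3 libraries and 10.5% in the knockout-labelled library replicate 2. The 10 adipocyte markers held 4.11% and 1.96% of counts in knockout-labelled eWAT and 0.222% and 0.354% in wild-type-labelled eWAT, whereas 18 epididymis markers held 8.67% and 10.05% of counts in wild-type-labelled eWAT and 0.00932% and 0.00157% in knockout-labelled eWAT. The 10 epithelium markers moved the same way, from 0.332% and 0.296% to 0.0335% and 0.0468%, and 7 testis and sperm markers went from 0.124% and 0.0618% to 0.0106% and 0.00123%. In bulk tissue, fewer cells of a type and less RNA per cell cannot be told apart.

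Wfdc6a and Wfdc6b shared the longest identical run of transcript sequence, 326 nt, and were the only members with counts that are not whole numbers, as arises when reads are divided between genes. Their coding sequences were 78.9% identical. The first 90 coding bases of Wfdc6a and the matching bases 31 to 120 of Wfdc6b (GENCODE transcripts of GRCm38) differ at 4 positions, printed here in capitals. The stretch is shown because reads from it can be hard to assign, and it is more alike than the coding sequences as a whole.
Wfdc6a: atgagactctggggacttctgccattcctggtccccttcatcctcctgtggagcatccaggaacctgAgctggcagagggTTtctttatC
Wfdc6b: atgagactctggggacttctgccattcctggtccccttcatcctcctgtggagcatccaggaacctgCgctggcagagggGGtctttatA
Levels of these 2 genes are uncertain relative to each other. Wfdc17 and Wfdc18 share 79.4% of their coding bases, and Spink11 and Spinkl share a run of 56 nt.

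Since the block was read together in eWAT, the 250 bases before the RefSeq start sites of 3 of its members and of Wfdc15b, which lies on chromosome 2 outside the block, were taken from GRCm38.p6. They are Wfdc10 (chr2:164655796-164656045, plus strand), Spint4 (chr2:164698251-164698500, plus strand), Spint5 (chr2:164715055-164715304, plus strand) and Wfdc15b (chr2:164221664-164221913, minus strand), none of which overlaps an annotated exon. They were chosen as members with levels over 100 CPM in wild-type-labelled eWAT and a promoter clear of exons. Capitals mark a match to AGAACA or its reverse complement.
Wfdc10: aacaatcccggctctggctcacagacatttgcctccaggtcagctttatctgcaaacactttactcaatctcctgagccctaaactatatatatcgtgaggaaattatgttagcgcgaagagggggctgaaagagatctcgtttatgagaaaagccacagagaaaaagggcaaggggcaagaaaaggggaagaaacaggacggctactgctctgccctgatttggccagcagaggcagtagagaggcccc
Spint4: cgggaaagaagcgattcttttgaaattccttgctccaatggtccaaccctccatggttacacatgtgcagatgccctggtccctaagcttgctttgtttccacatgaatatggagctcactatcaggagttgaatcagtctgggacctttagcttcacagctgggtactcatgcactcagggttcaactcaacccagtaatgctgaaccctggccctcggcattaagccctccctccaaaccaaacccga
Spint5: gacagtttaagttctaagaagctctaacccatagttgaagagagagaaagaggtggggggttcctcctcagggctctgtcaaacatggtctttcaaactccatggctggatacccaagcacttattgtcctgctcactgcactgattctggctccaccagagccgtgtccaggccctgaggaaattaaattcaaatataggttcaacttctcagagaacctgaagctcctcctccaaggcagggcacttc
Wfdc15b: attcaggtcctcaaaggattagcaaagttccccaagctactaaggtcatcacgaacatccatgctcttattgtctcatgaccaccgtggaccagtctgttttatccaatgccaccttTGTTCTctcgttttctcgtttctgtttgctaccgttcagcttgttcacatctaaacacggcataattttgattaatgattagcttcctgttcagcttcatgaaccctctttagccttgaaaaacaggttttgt
Promoter entries were present for 22 members (27 entries). On both strands, the CREB-binding palindrome TGACGTCA was in 0 of the 27 entries and in 1.55% of all 32851 promoters. Its half-site TGACG was in 3 entries (Wfdc6a, Wfdc6b and Wfdc8), 11.1% against 17.8% of all promoters. The androgen receptor half-site AGAACA was in 3 (Spint3, Wfdc11 and Wfdc15b), 11.1% against 16.1%, the full androgen response element, a palindrome of that half-site, in 0 against 0.00913%, and TATAAA in 3 (Spint3, Wfdc8 and Wfdc18), 11.1% against 12.4%. A match is only a run of letters in this window.

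Wild-type-labelled eWAT held most of the inhibitor RNA. The members together took 0.935% (Wilson 95% interval 0.931 to 0.940) and 0.861% (0.857 to 0.866) of counts there, and 0.0157 to 0.0309% in each of the other 6 libraries. Above the floor of 3 counts were 33 and 31 of the 36 members in wild-type-labelled eWAT, 25 and 15 in knockout-labelled eWAT, 8 and 8 in wild-type-labelled liver, and 23 and 10 in knockout-labelled liver. Wfdc5 and Spink6 had no count in any library. The plot of CPM by library shows each of the 27 members whose mean reached 5 CPM in at least 1 group. By FPKM, Wfdc10 led in wild-type-labelled eWAT with 6368 and 5025 FPKM in replicates 1 and 2, followed by Spink8 with 3464 and 3621. These 2 did not overlap, and both stood above Wfdc13 (1106 and 1044 FPKM) and Spint4 (1279 and 861 FPKM), whose ranges overlapped. Spint2 (808 and 658 FPKM), Wfdc15b (732 and 635) and Spint5 (785 and 433) followed, again with overlapping ranges.

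**Figure D1:**
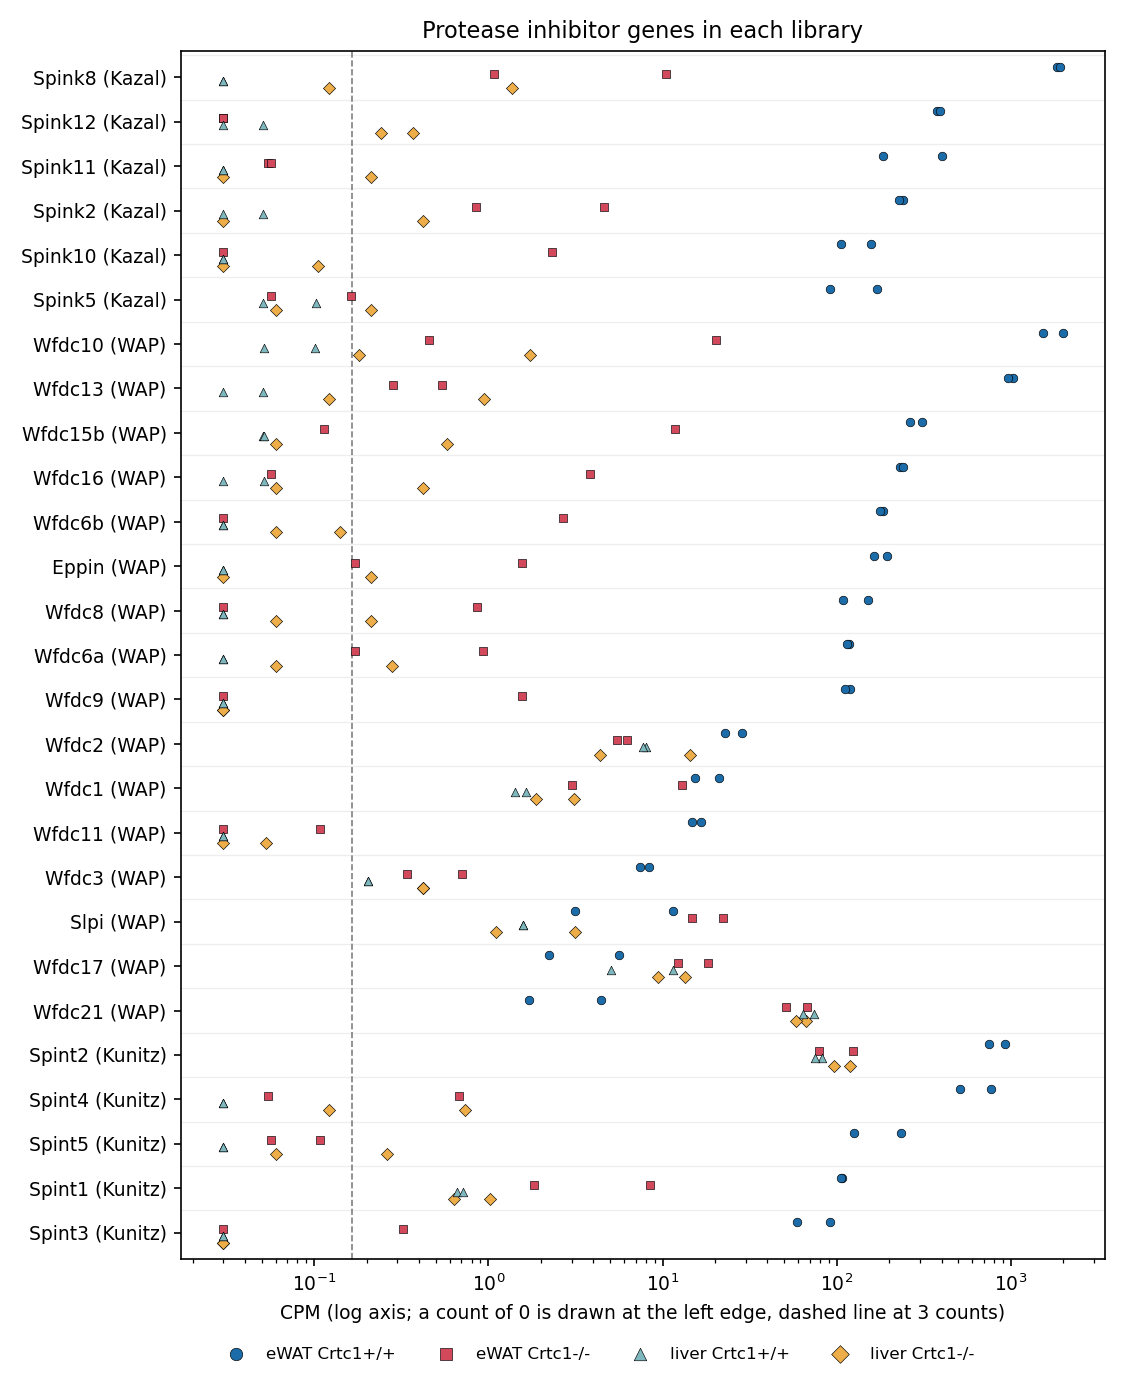
CPM on a log axis of the 27 members with a group mean of at least 5 CPM, 1 row per gene and 1 point per library (circles and squares eWAT, triangles and diamonds liver; a count of 0 at the left edge, dashed line at 3 counts). In 24 of the 27 rows both wild-type-labelled eWAT libraries lie to the right of both knockout-labelled eWAT libraries (44.0% of all genes tested). In Slpi, Wfdc17 and Wfdc21 they lie to the left (21.1% of all genes tested).

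To ask how genotype was related to the inhibitors in fat, the 2 knockout-labelled eWAT libraries were compared with the 2 wild-type-labelled ones. Of 31 members tested, 20 fell and 1 (Wfdc21) rose at an adjusted p under 0.05, which is 67.7% of the members tested against 12.2% of all 15391 genes (5.54% lower and 6.65% higher). The balance over all genes, 1023 higher and 852 lower, depended on the scaling and was 744 and 996 with upper-quartile scaling and 587 and 1075 with scaling by library size, with 21 and 24 members called. The median log2 fold change was -6.84 over the members tested, or -6.70 with floor-level members set to the bound or ratio of their counts in unscaled CPM, and -0.05 over all genes. The fall covered all 3 families: 7 of 9 Kazal genes, 8 of 17 WAP genes and 5 of 5 Kunitz genes passed the test as lower. In 27 members both knockout-labelled libraries were below both wild-type-labelled libraries (44.0% of all genes), in 3 both were above (21.1%), and Wfdc18 overlapped. The 5 members not tested were Spink1, Spink6, Wfdc5, Wfdc12 and Wfdc15a, all of them below 5 CPM in every library. The 18 epididymis markers fell alongside, 17 of them at an adjusted p under 0.05, with a median log2 fold change of -12.29, and their part in the result was not tested. With 1 of the wild-type-labelled libraries left out, edgeR called 0 of 15697 genes (without replicate 1) and 0 of 16220 genes (without replicate 2), members included, and 27 members had an unadjusted p under 0.05 in each case, as did 28 with all 4 libraries (33.3% of all genes). With either knockout-labelled library left out, 25 and 23 members were called. Spink10, Wfdc6b, Wfdc10, Wfdc15b and Wfdc16 did not pass with all 4 libraries but passed, as lower, without either of them. Spinkl and Wfdc2 passed with all 4 and failed without either (adjusted p of 0.0776 and 0.0914 for Spinkl and 0.0507 and 0.0693 for Wfdc2), and Wfdc3 failed without replicate 2 (adjusted p = 0.0736).

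Among the Kazal genes, Spink8, an epididymal member, had the highest FPKM in wild-type-labelled eWAT. It was read at 1849 and 1910.1 CPM in wild-type-labelled eWAT (replicates 1 and 2) and at 10.4 and 1.08 CPM in knockout-labelled eWAT, and the groups did not overlap (log2 fold change -8.14 ± 1.27, adjusted p = 0.0269). Liver held 0 and 0 CPM of it (wild-type-labelled) and 1.37 and 0.121 CPM (knockout-labelled). Spink12 was at 376 and 392 CPM in wild-type-labelled eWAT and had no count in either knockout-labelled eWAT library, so it was at least 1847-fold lower against a floor of 3 counts per library with the scaling of the fit (adjusted p = 0.0119). Its liver values were 0.0507 and 0 CPM and 0.368 and 0.242 CPM, in the same order of genotypes, so the knockout-labelled liver libraries held more of it than the eWAT libraries with that label. Spink11 went from 185 and 404 CPM to 1 count in each knockout-labelled library (0.0540 and 0.0567 CPM), a ratio of 5279 (95% interval 1461 to 43592) with adjusted p = 0.0119. Spink5, which encodes the multidomain inhibitor of skin kallikreins, went from 92.1 and 171 to 0.162 and 0.0567 CPM, a ratio of 1183 (95% interval 462 to 4344) with adjusted p = 0.0127. In both genes replicate 2 of wild-type-labelled eWAT was the higher one. Liver held Spink11 at 0 and 0 CPM and 0.210 and 0 CPM, and Spink5 at 0.0507 and 0.102 CPM and 0.210 and 0.0604 CPM.

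Spink2, the inhibitor that restrains acrosin in sperm, fell from 242 and 227 CPM to 4.59 and 0.851 CPM in eWAT (log2 fold change -6.19 ± 0.83, adjusted p = 0.0221). No other Kazal gene above 50 CPM kept a larger share of its level. Liver held it at 0.0507 and 0 CPM (wild-type-labelled) and 0.421 and 0 CPM (knockout-labelled). Spink10 was at 106 and 158 CPM in wild-type-labelled eWAT and at 2.32 and 0 CPM in knockout-labelled eWAT, with 0 and 0 CPM and 0.105 and 0 CPM in liver. The 2 knockout-labelled libraries differed so much that it did not pass the test (log2 fold change -6.61 ± 1.58, adjusted p = 0.0595). Its overlapping neighbour Spink13 was at 2.68 and 3.75 CPM, had no count in the knockout-labelled libraries, and was at least 15.5-fold lower there (adjusted p = 0.0328). Spinkl passed as well, from 3.11 and 4.09 to 0.162 and 0.170 CPM (3 counts in each knockout-labelled library, a ratio of 21.6 (95% interval 9.67 to 60.0), adjusted p = 0.0349). Spink4, known from intestinal goblet cells, did not pass (adjusted p = 0.0650).

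In the chromosome 2 block all 14 members were lower in both knockout-labelled eWAT libraries than in both wild-type-labelled ones (44.0% of all genes). The test called 11 of them lower (5.54% of all genes), and the median log2 fold change of the 14 was -7.44. Wfdc10 was the most abundant at 1987 and 1537 CPM, and in knockout-labelled eWAT it was at 20.3 and 0.454 CPM. Replicate 1 of the latter held 44.8 times as much as replicate 2, and the fall did not pass (log2 fold change -7.21 ± 1.81, adjusted p = 0.0650). Wfdc13, which follows Wfdc11 in the block, behaved otherwise. It was at 1025 and 961 CPM in wild-type-labelled eWAT and at 0.540 and 0.284 CPM in knockout-labelled eWAT, with both knockout-labelled libraries under 1 CPM, and it had the smallest adjusted p of all members (log2 fold change -10.92 ± 0.56, adjusted p = 0.0114). Eppin, the sperm-surface protein, fell from 196 and 164 to 1.57 and 0.170 CPM (log2 fold change -7.44 ± 0.98, adjusted p = 0.0212). Wfdc6a fell from 117 and 114 to 0.937 and 0.170 CPM (adjusted p = 0.0169). Wfdc6b, its near copy, was at 184 and 177 CPM and then at 2.68 and 0 CPM and did not pass (adjusted p = 0.0591). Since reads may have been divided between these 2, the difference between their calls was not read further.

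The middle of the block held Wfdc8, Wfdc9, Wfdc16 and Wfdc11, all of them WAP genes. Wfdc8 fell from 109 and 152 to 0.865 and 0 CPM (log2 fold change -7.97 ± 1.32, adjusted p = 0.0293). Wfdc9, which overlaps Wfdc10, fell from 119.7 and 112 to 1.57 and 0 CPM (log2 fold change -6.96 ± 1.45, adjusted p = 0.0453). In both genes the remaining counts came from replicate 1 alone. Wfdc16 was at 231 and 239 CPM and at 3.84 and 0.0567 CPM and did not pass (adjusted p = 0.0554). Wfdc11 fell from 14.7 and 16.7 to 0.108 and 0 CPM, 2 counts in all, a ratio of 284 (95% interval 78.1 to 2348) with adjusted p = 0.0201. The 2 end genes changed least. Wfdc2, the epithelial protein known as HE4 in human epididymis, was at 28.4 and 22.9 CPM in wild-type-labelled eWAT and at 6.21 and 5.50 CPM in knockout-labelled eWAT (log2 fold change -1.81 ± 0.36, adjusted p = 0.0407). Wfdc3, which encodes several WAP domains, was at 7.43 and 8.34 and 0.703 and 0.340 CPM (log2 fold change -3.62 ± 0.65, adjusted p = 0.0343). They were also the only members of the block above the floor in both wild-type-labelled liver libraries.

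Liver values of the block were low. Wfdc2 was at 8.01 and 7.71 CPM in wild-type-labelled liver and 14.4 and 4.35 CPM in knockout-labelled liver, and Wfdc3 at 0.203 and 0.204 and 0.421 and 0.423 CPM. The other 12 held at most 2 counts in a wild-type-labelled liver library. In knockout-labelled liver, replicate 1 stood above replicate 2 in every member of the block with a count there other than Wfdc3. In that order of replicates Wfdc10 was at 1.73 and 0.181 CPM, Wfdc13 at 0.946 and 0.121 CPM and Spint4 at 0.736 and 0.121 CPM. Wfdc16 followed at 0.421 and 0.0604 CPM, Wfdc6a at 0.280 and 0.0604 CPM and Spint5 at 0.263 and 0.0604 CPM. Eppin was at 0.210 and 0 CPM, Wfdc8 at 0.210 and 0.0604 CPM, Wfdc6b at 0.140 and 0.0604 CPM and Wfdc11 at 0.0526 and 0 CPM. Wfdc9 and Spint3 had no count in any liver library. The 18 epididymis markers held 0.00897% of counts in replicate 1 and 0.00126% in replicate 2 of knockout-labelled liver, against 0.000248% and 0.000240% in wild-type-labelled liver, and their part in these values was not tested.

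**Figure D2:**
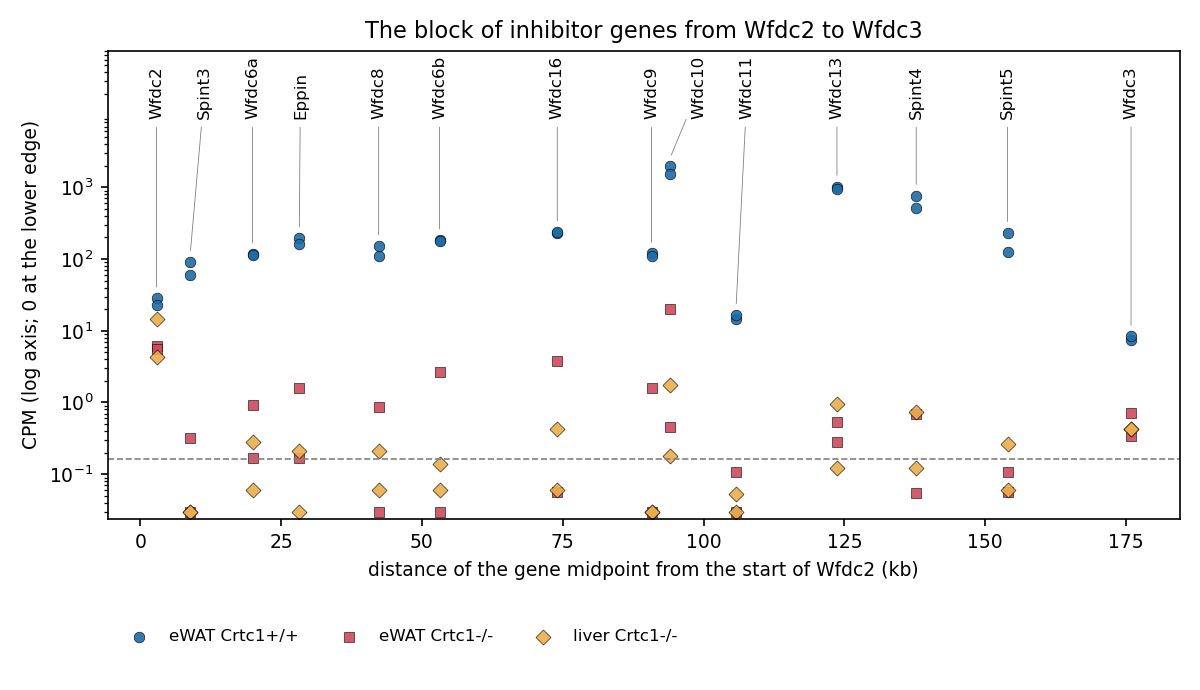
CPM on a log axis (0 at the lower edge, dashed line at 3 counts) of the 14 members of the chromosome 2 block against the distance of the gene's midpoint from the start of Wfdc2 in kb, 1 point per library for wild-type-labelled eWAT (circles), knockout-labelled eWAT (squares) and knockout-labelled liver (diamonds). All 14 genes have both circles above both squares, as do 44.0% of all genes tested, and Wfdc2 and Wfdc3 at the 2 ends show the smallest distance.

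Outside the block, 4 WAP genes did not follow it. Wfdc21, a small secreted WAP protein gene on chromosome 11, was at 4.42 and 1.70 CPM in wild-type-labelled eWAT and at 51.3 and 67.5 CPM in knockout-labelled eWAT. It was the only member called higher there by the main edgeR fit (log2 fold change 4.62 ± 0.62, adjusted p = 0.0215). In liver it was at 73.7 and 63.7 CPM (wild-type-labelled) and 66.6 and 58.4 CPM (knockout-labelled), so its CPM in knockout-labelled eWAT overlapped that of liver. Hepatocyte markers held 10.5% of counts in replicate 2 of knockout-labelled eWAT and 0.595% in replicate 1, and without replicate 2 the log2 fold change was 4.24 (adjusted p = 0.0142). Between the knockout-labelled tissues the log2 fold change of Wfdc21, eWAT against liver, was -1.14 ± 0.47 with the scaling of the fit. It was -0.07 with scaling by library size, and edgeR called neither (adjusted p = 0.106 and 0.891). Wfdc17, also on chromosome 11 and a WAP gene of activated macrophages and microglia, was at 5.62 and 2.21 CPM and then at 18.3 and 12.3 CPM in eWAT. It did not pass (log2 fold change 2.26 ± 0.58, adjusted p = 0.0682). DESeq2 and edgeR's fit of all 8 libraries called Wfdc17 higher (adjusted p = 0.00293 and 0.0309). Liver held it at 11.5 and 5.06 CPM and 13.4 and 9.42 CPM, with overlapping groups. All 6 macrophage markers were higher in knockout-labelled eWAT, 2 of them past the test (Csf1r and Adgre1), and held 0.111% and 0.0472% of counts against 0.0307% and 0.0153%, and their part in the values of Wfdc17 was not tested. Slpi, the secretory inhibitor of neutrophil elastase, was at 11.5 and 3.12 CPM and 22.3 and 14.7 CPM in eWAT (log2 fold change 1.65 ± 0.68, adjusted p = 0.167) and at 1.57 and 1.58 CPM and 1.10 and 3.14 CPM in liver. The third gene on chromosome 11, Wfdc18, known from the mammary gland, stayed below 5 CPM in every library (adjusted p = 0.769 in eWAT).

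Wfdc1, a stromal WAP gene, was at 21.1 and 15.4 CPM in wild-type-labelled eWAT and 12.9 and 3.01 CPM in knockout-labelled eWAT, which did not pass the test (log2 fold change -0.95 ± 0.68, adjusted p = 0.359). Without replicate 1 of knockout-labelled eWAT the log2 fold change was -2.14 and passed (adjusted p = 0.0471), and without replicate 2 it was -0.34 (adjusted p = 0.668). In liver it was at 1.42 and 1.63 CPM and 3.10 and 1.87 CPM. Wfdc15b, by contrast, went from 308 and 262 CPM to 11.7 and 0.113 CPM in eWAT. Replicate 2 of the knockout-labelled libraries held 2 counts, under the floor of 3 counts, and the gene did not pass (log2 fold change -5.40 ± 1.74, adjusted p = 0.107). Its liver values were 0.0507 and 0.0511 CPM and 0.578 and 0.0604 CPM. The WAP genes that fell short of the test with falls of over 5 on the log2 scale, Wfdc6b, Wfdc10, Wfdc15b and Wfdc16, had over 2 CPM in replicate 1 of knockout-labelled eWAT and at most 0.454 CPM in replicate 2.

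The 5 Kunitz genes all fell in eWAT. Spint2 encodes a membrane inhibitor of epithelial serine proteases, and it was at 927 and 751 CPM in wild-type-labelled eWAT and 124 and 78.9 CPM in knockout-labelled eWAT (log2 fold change -2.75 ± 0.37, adjusted p = 0.0221). Liver held 82.0 and 75.5 CPM (wild-type-labelled) and 119 and 96.0 CPM (knockout-labelled). Its relative Spint1 went from 107 and 106 CPM to 8.48 and 1.82 CPM (log2 fold change -4.13 ± 0.72, adjusted p = 0.0324), with 0.659 and 0.715 CPM and 0.631 and 1.03 CPM in liver. The other 3 are small secreted Kunitz genes of the chromosome 2 block and fell further. Spint4 went from 766 and 510.5 CPM to 0.0540 and 0.681 CPM (log2 fold change -10.36 ± 1.30, adjusted p = 0.0197), and replicate 2 of the knockout-labelled libraries was the higher one. Spint5 went from 232 and 126 CPM to 0.108 and 0.0567 CPM, 3 counts in all, a ratio of 2169 (95% interval 742 to 10520.5) with adjusted p = 0.0119. Spint3 went from 91.0 and 58.9 CPM to 0.324 and 0 CPM (log2 fold change -8.51 ± 1.09, adjusted p = 0.0202). All 3 had no count in either wild-type-labelled liver library.

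The proteases were read beside their inhibitors from a list of 36 serine proteases, 35 of them in the table. In eWAT 27 were tested, of which 2 fell (St14 and Prss8) and 1 rose (Elane). The share called was near the 12.2% of all genes called. The median log2 fold change of the list was 1.23. Its summed share of counts was 0.0468% and 0.168% in knockout-labelled eWAT and 0.0760% and 0.0609% in wild-type-labelled eWAT. Hepatocyte markers were at 10.5% of counts in the library with the highest share, in which Plg, the plasminogen gene of liver, was at 643 CPM against 9.35 CPM in replicate 1, and their part in the median was not tested. St14, the matriptase that Spint1 and Spint2 inhibit, was at 209 and 235 CPM in wild-type-labelled eWAT and 8.16 and 1.08 CPM in knockout-labelled eWAT (log2 fold change -5.37 ± 0.96, adjusted p = 0.0342). Prss8, the prostasin that Spint2 also inhibits, was at 117 and 103 CPM and 12.6 and 3.12 CPM (log2 fold change -3.56 ± 0.65, adjusted p = 0.0352). Both inhibitors and both proteases were thus lower in the same 2 libraries, in which the 10 epithelium markers were lower too, and the part of the latter was not tested. Elane, the neutrophil elastase that Slpi inhibits, was low throughout, at 0.273 and 0.284 CPM and 3.08 and 1.76 CPM (log2 fold change 3.37 ± 0.72, adjusted p = 0.0477). The 6 neutrophil markers together held 29 and 2 counts in wild-type-labelled eWAT (0.000158% and 0.0000114%) and 105 and 44 counts in knockout-labelled eWAT (0.000567% and 0.000250%). In wild-type-labelled eWAT 4 and 6 of them were at or under the floor. Only 2 of the 6 could be tested and edgeR called 0. Their part in the value of Elane was not tested.

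**Figure D3:**
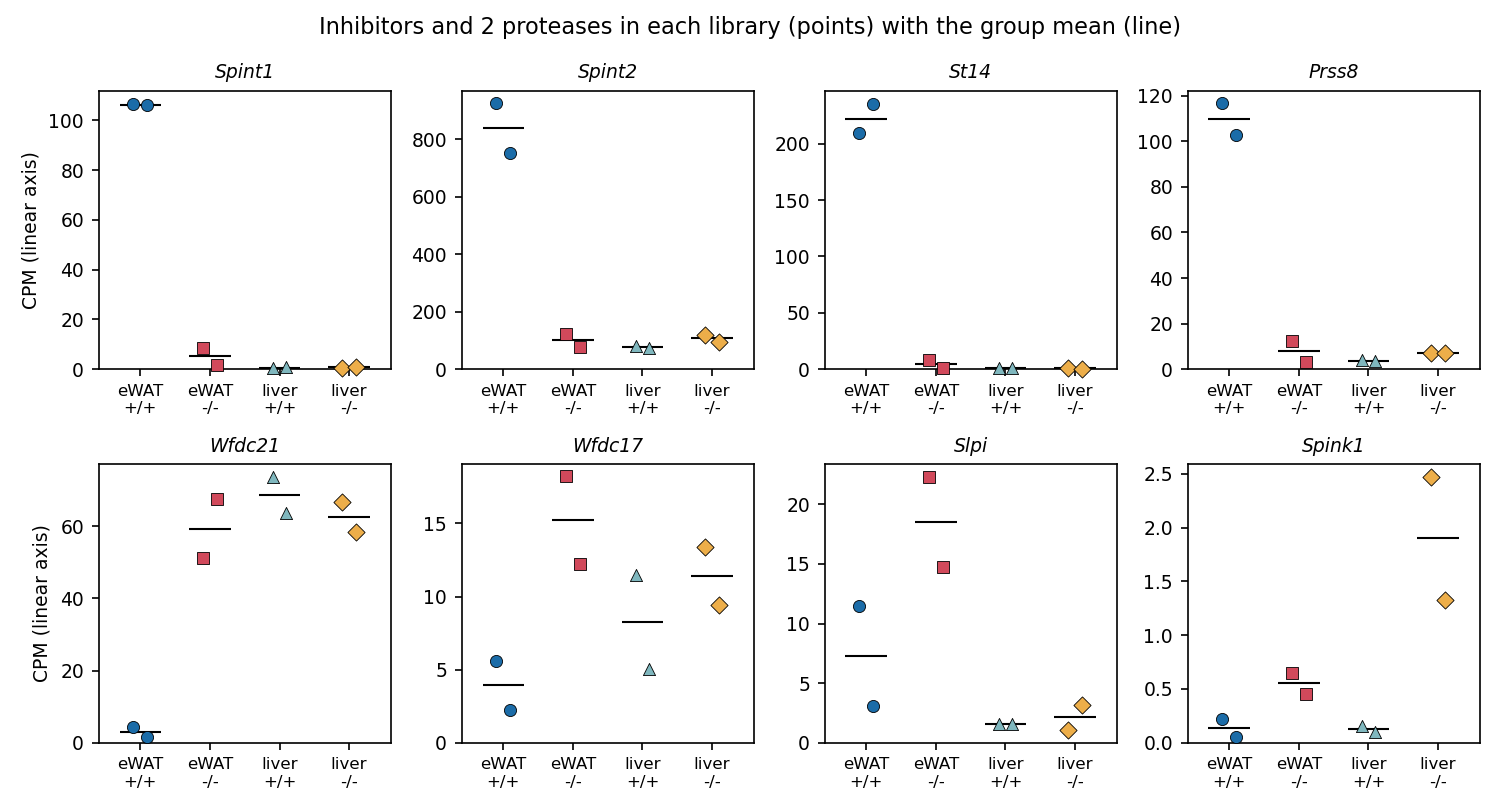
CPM on linear axes that start at 0 for 6 inhibitor genes and the proteases St14 and Prss8, with 1 point per library and a line at the mean of the 2 libraries of a group. Spint1, Spint2, St14 and Prss8 are high in wild-type-labelled eWAT alone, Wfdc21 is low in that group alone, and Spink1 is highest in knockout-labelled liver.

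How much was left in each library differed between members. For 19 members with a mean of at least 50 CPM in wild-type-labelled eWAT and under 1 CPM in wild-type-labelled liver, the level was expressed as a percentage of that eWAT mean. This choice and the reading below followed from the values and carry no test. In knockout-labelled eWAT, replicate 1 held a median of 0.809% and replicate 2 a median of 0.0286%. The members spread widely in replicate 1, from 0% (Spink12) to 7.98% (Spint1). Wfdc15b kept 4.11%, Spink2 1.96%, Spink10 1.76%, Wfdc16 1.63% and Wfdc10 1.15%. Spink5 kept 0.123%, Spint5 0.0604%, Wfdc13 0.0544%, Spink11 0.0184% and Spint4 0.00847%. Genes of the block fell on different sides, with Wfdc9 at 1.35% and Wfdc10 on one and Wfdc13 and Spint4 on the other. Wfdc9 and Wfdc10 overlap by 1298 bp, so their values may not be separate readings. In knockout-labelled liver replicate 1 the median was 0.115% and the range 0% (Spint3 and Wfdc9) to 0.593% (Spint1), with Wfdc10 at 0.0985%, Wfdc13 at 0.0953%, Spint4 at 0.115%, Spink8 at 0.0727% and Spink12 at 0.0959%. These 5 were chosen after their values were seen, and rest on 7 to 33 counts, the other members on 0 to 12. For 17 epididymis markers chosen by the same limits, the medians were 0.00789% in replicate 1 and 0.0212% in replicate 2 of knockout-labelled eWAT, and 0.0887% (0.0256 to 0.153%) in replicate 1 of knockout-labelled liver. Summed over genes, replicate 1 of knockout-labelled eWAT held 0.877% of the members' CPM and 0.214% of that of the epididymis markers, of which Cuzd1 kept most (1.83%), so the sums lay closer than the medians did. No cause of this was tested.

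**Figure D4:**
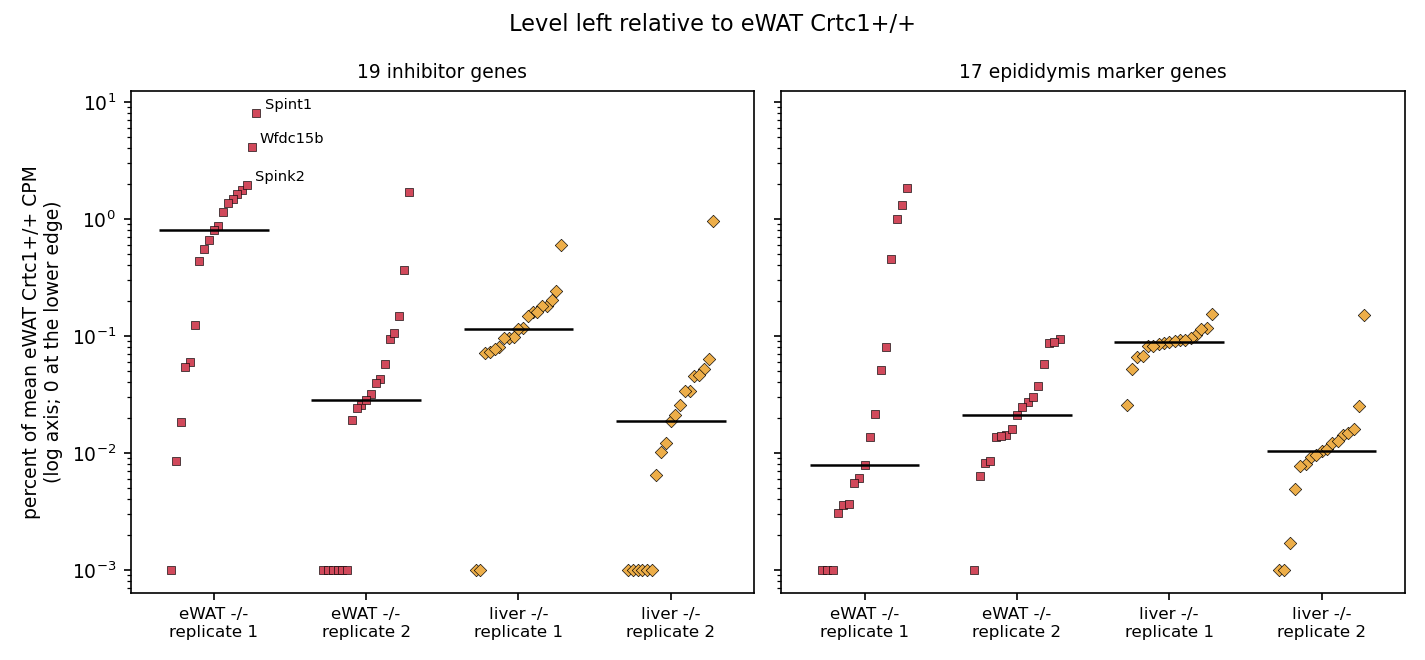
Level in each knockout-labelled library as a percentage of the mean CPM in wild-type-labelled eWAT, on a log axis (0 at the lower edge), for 19 inhibitor genes (left) and 17 epididymis marker genes (right), 1 point per gene with a line at the median. In replicate 1 of eWAT the inhibitors have a median of 0.809% and the epididymis markers one of 0.00789%, and in replicate 1 of liver both sets lie at medians of 0.115% and 0.0887%.

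Genes with Kazal, WAP or Kunitz domains that carry other symbols were taken from a list of 31, of which 28 were tested in eWAT. Their median log2 fold change was 0.69, with 2 that rose and 2 that fell, 4 of 28 against 12.2% of all genes called, so the share called was near the background. Aplp2, a relative of the amyloid precursor with a Kunitz domain, rose from 502 and 489.7 CPM to 1758 and 1413 CPM (log2 fold change 1.98 ± 0.39, adjusted p = 0.0400). Smoc1, a matricellular protein, rose from 52.6 and 39.3 to 538 and 382 CPM (log2 fold change 3.62 ± 0.36, adjusted p = 0.0169). Spock1, a proteoglycan, fell from 28.3 and 48.5 to 0.162 and 0 CPM (log2 fold change -8.49 ± 1.01, adjusted p = 0.0192), and Col7a1, the collagen of anchoring fibrils, from 17.6 and 21.9 to 1.35 and 1.08 CPM (log2 fold change -3.71 ± 0.45, adjusted p = 0.0193).

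In liver, 8 members could be tested between the genotypes, and edgeR called 0 of them (0.0854% of all 11707 genes were called), with 1 at an unadjusted p under 0.05 (17.3% of all genes). DESeq2 and limma also called 0. The calls changed when a knockout-labelled liver library was left out, over all genes as well as among the members. The log2 fold changes were 0.40 ± 0.26 for Spint2, 0.20 ± 0.51 for Spint1, 0.21 ± 0.48 for Wfdc2 and -0.19 ± 0.25 for Wfdc21. Those of Wfdc1 (0.65 ± 0.44), Wfdc17 (0.42 ± 0.39) and Slpi (0.35 ± 0.52) also did not pass the test. Spink1, the trypsin inhibitor known from the pancreas, showed the largest ratio of the 8. It was at 0.152 and 0.102 CPM in wild-type-labelled liver and 2.47 and 1.33 CPM in knockout-labelled liver, which are 3 and 2 counts against 47 and 22, a ratio of 15.2 (95% interval 6.22 to 48.4). The groups did not overlap (28.4% of all genes were higher without overlap), and the adjusted p of 0.0680 missed the threshold. Without a filter edgeR called Spink1 higher (adjusted p = 0.00453), along with 186 genes higher and 115 lower over all genes. With a replicate block it did so too (adjusted p = 0.0297, 60 genes higher and 22 lower), while DESeq2 and limma did not call Spink1. At a threshold of a log2 fold change beyond 1 in either direction and an unadjusted p below 0.01 in the main fit Spink1 passed, as did 2.84% of genes upwards and 1.43% downwards. In eWAT it was at 0.218 and 0.0568 CPM and 0.648 and 0.454 CPM and was not tested. The 6 pancreatic acinar markers held 0.0138% of counts in replicate 1 of knockout-labelled eWAT and at most 0.000896% in each other library. Of the 16 proteases and 19 further domain genes tested in liver, 0 were called by edgeR, with 4 and 4 at an unadjusted p under 0.05. Over the liver libraries, those with the highest mean CPM in each list were Plg and Ambp, by counts not corrected for transcript length.

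The tissues were then compared within a genotype. In wild-type-labelled mice, 26 of 32 members were higher in eWAT and 2 lower (54.9% of all 15587 genes were called, 35.0% higher and 19.8% lower), with a median of 0.61 on the log2 scale over all genes. Scaling by library size moved that median to 2.003 and the calls over all genes from 5461 higher and 3091 lower to 10702 and 1124, and 30 members were then called. Of the 32, 24 were at or under the floor in liver. Against a floor of 3 counts per library and with the scaling of the fit, Spink8 was at least 4661-fold and Spint4 at least 1581-fold higher in eWAT. Spint1 (log2 fold change 5.87 ± 0.62, adjusted p = 0.000893) and Spint2 (2.01 ± 0.32, adjusted p = 0.00293) were above the floor in both tissues. In wild-type-labelled liver Spint1 had only 13 and 14 counts. Wfdc21 was lower in eWAT (log2 fold change -5.88 ± 0.57, adjusted p = 0.000690), as was Wfdc17 (-2.47 ± 0.56, adjusted p = 0.0106), although the CPM of Wfdc17 overlapped. In knockout-labelled mice, 0 members were higher and 4 lower in eWAT (27.8% of all genes were called, 18.9% higher and 8.89% lower). These were Spink1 (-2.91 ± 0.76, adjusted p = 0.0311), Spink12 (at least 1.83-fold in unscaled CPM, adjusted p = 0.00661), Spint2 (-1.23 ± 0.31, adjusted p = 0.0275) and Wfdc2 (-1.80 ± 0.54, adjusted p = 0.0455). In CPM, Spint2 and Wfdc2 overlapped between the tissues. The call of Spink12 rested on 0 and 0 counts in eWAT against 7 and 4 in liver. Of the 32 members, 8 were at or under the floor in knockout-labelled eWAT and 9 in knockout-labelled liver. The filter ran over all 8 libraries, so a member could enter through wild-type-labelled eWAT alone. The lack of a call therefore does not show equal levels. With scaling by library size, under which the median of all genes moved from 0.20 to 1.33 and the calls over all genes from 2945 higher and 1385 lower to 7022 and 105, only Spink12 was called lower, and Slpi, Spink2, Spinkl and Spint1 were called higher. Without replicate 1 or 2 of the knockout-labelled eWAT libraries 1 and 11 members were called, and without replicate 1 or 2 of the knockout-labelled liver libraries 1 and 2. The 2 tissue comparisons share no library.

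The interaction of tissue and genotype, which asks whether the difference in eWAT was not the one in liver, was called for 14 of 32 members (6.94% of all genes), 13 of them with the lower value in eWAT (3.16%) and Wfdc21 with the higher (3.78%). It included the 2 inhibitors that liver expresses well, Spint2 (-3.25 ± 0.44, adjusted p = 0.0120) and Wfdc21 (4.74 ± 0.69, adjusted p = 0.0141), and also Spint1 (-4.46 ± 0.82, adjusted p = 0.0261). St14 and Prss8 were called as well, with log2 values of -5.34 and -4.52 (adjusted p = 0.0306 and 0.0137). The other called members were at or near the floor in liver, where the depth could not show a fall. Without 1 of the wild-type-labelled liver libraries the count fell to 0 (without replicate 1, where edgeR called 0 of 16469 genes and 19 members had an unadjusted p under 0.05) or 2 (without replicate 2). It was 2 and 9 without replicate 1 or 2 of knockout-labelled liver, 9 and 5 without replicate 1 or 2 of wild-type-labelled eWAT, and 22 without replicate 1 of knockout-labelled eWAT. Over all genes the interaction was called higher for 589 and lower for 492, against 420 and 545 with upper-quartile scaling and 262 and 443 with scaling by library size.

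The 2 wild-type-labelled eWAT libraries were compared by family, without a test. Of 25 members with at least 5 CPM there, 16 were higher in replicate 1 and 9 in replicate 2. All 5 Kunitz genes were higher in replicate 1, with a median log2 ratio of replicate 1 to replicate 2 of 0.59, though Spint1 was close to a tie (107 and 106 CPM). All 4 Kazal genes of chromosome 18 (Spink5, Spink10, Spink11 and Spink12) were higher in replicate 2, with a median of -0.73, though Spink12 differed little (376 and 392 CPM). Spint5 showed 232 and 126 CPM and Spink11 185 and 404 CPM in these libraries. The 14 members of the chromosome 2 block had a median of 0.10. Of all 11793 genes, 5892 were higher in replicate 1 and 5901 in replicate 2. Their median was 0.00 and the 5th to 95th percentiles were -0.97 to 1.41. Spink11 at -1.13 lay below these percentiles and Slpi at 1.88 above them. Epididymis markers held 8.67% of counts in replicate 1 and 10.05% in replicate 2.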

How the data were processed

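RNA from liver and eWAT of 4 groups of 2 libraries was sequenced at BGI. The deposited expected counts per gene were not normalized, and between 5.44 and 9.98% of the genes in a library had a value that was not whole. The FPKM values as deposited by the authors are scaled to library size and transcript length. The submitters' processing notes name HISAT, Bowtie2 and GRCm38.p6, and versions, roles and strand setting are not given in the sources used here. The study's methods describe independent biological replicates, and which liver and eWAT libraries came from 1 mouse is not given.

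Expected counts were rounded and tested with edgeR 4.0.16 in R 4.3.3 (filterByExpr, TMM, quasi-likelihood test). The p-values were adjusted by the Benjamini-Hochberg method across every gene of a fit, and calls were made at an adjusted p below 0.05. The study applied limma to normalized values. A test for counts was chosen here because counts were deposited. Each genotype comparison was fitted on the 4 libraries of its tissue. The tissue comparisons and the interaction were fitted on all 8 libraries. TMM factors in eWAT were 0.984 and 0.818 (knockout-labelled) and 1.14 and 1.10 (wild-type-labelled), and 0.974 to 1.04 in liver. Values after ± are standard errors of the log2 fold change. With 2 against 2 libraries an exact permutation test cannot give a p below 0.333, so no such test was used. Members whose mean reached 5 CPM in a group were described with their values, and the remaining members only where they passed a test. The scripts were tested on simulated data whose spread between libraries was set below that of the fits here. That test does not show how they call at the spread of these data.

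A group without any count was compared as a bound against 3 counts per library, the smaller of that in unscaled CPM and that with the TMM factors of the fit, and a group with at most 3 counts in each library by a ratio of unscaled CPM with an exact 95% counting interval. Alternatives were DESeq2 1.42.0, limma 3.58.1 on log2(FPKM + 1) and log2(FPKM + 0.1), other scalings and filters, all 8 libraries in 1 fit, a replicate block, a threshold of 1 on the log2 scale with an unadjusted p of 0.01, and each library left out in turn. Gene order and promoters came from RefSeq and transcripts from GENCODE, both on GRCm38. Members, gene lists and tests were chosen with earlier results of these data known. Figures were drawn with matplotlib 3.10.9 in Python 3.11.15.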

Additional observations from a re-analysis of the deposited data

Results flagged for a closer look

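For 14 members the effect of genotype in eWAT differed from that in liver by the interaction term of edgeR's quasi-likelihood test, adjusted over all genes. The adjusted p was 0.00610 for Spink12, 0.00883 for Wfdc13, 0.0104 for Spink5 and 0.0104 for Spint5. It was 0.0120 for Spint2, 0.0141 for Wfdc21, 0.0163 for Spint4 and 0.0178 for Wfdc6a. For Spink11 it was 0.0207, for Wfdc3 0.0209, for Spink8 0.0246 and for Spint1 0.0261, and it was 0.0419 for Spink2 and 0.0449 for Wfdc10. Wfdc21 had the higher value in eWAT and the other 13 the lower. Members with 2 counts or fewer in each wild-type-labelled liver library could not have shown a fall there.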

How the results depend on the processing

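In eWAT 21 members were called, and 19 to 28 under the other tools, scalings, filters, thresholds and samples in the fit. With the replicate block 0 of all genes were called (29 members had an unadjusted p under 0.05), and the count was 0 to 25 with 1 library left out. The labels' replicate numbers were not shown to pair libraries: same-numbered libraries had correlated deviations of 0.0054 in eWAT, 0.0569 in liver, 0.0375 between knockout-labelled tissues and 0.161 between wild-type-labelled tissues, with 2 pairs each. With the block, 1 member was called in liver, 14 for the interaction, 28 for the wild-type-labelled and 3 for the knockout-labelled tissues. In liver, where 0 were called, the other threshold gave 1, no filter 2 (Spink1 and Spink8), and leaving out 1 library 0 to 3. The interaction, called for 14, was called for 26 and 25 by limma on log2(FPKM + 1) and log2(FPKM + 0.1), and for 0 to 22 with 1 library left out. The tissue comparison gave 24 to 30 in wild-type-labelled mice (28), and in knockout-labelled mice (4) it gave 2 by limma on log2(FPKM + 1) and 1 to 11 with 1 library left out. The cause was not tested.

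Liver log2 fold changes that turned negative were those of Spint1 by limma (-0.028 and -0.095 with the 2 pseudocounts) and of Wfdc2 (-0.00016 by limma with 0.1 added, -0.0066 with the block). With 1 library left out they ran from -0.055 to 1.10 for Wfdc17, from -0.16 to 0.51 for Spint1, from -0.92 to 0.83 for Wfdc2 and from -0.55 to 0.92 for Slpi. Over all genes, DESeq2 called 2362 higher and 2258 lower in eWAT against 1023 and 852 by edgeR, and 175 and 136 in liver against 7 and 3. The fit of all 8 libraries called 1792 and 2069 in eWAT, and liver without a filter 186 and 115. With 2 libraries per group and counts of 0 to 3 in many libraries, depth limited the ratios of the lowest members.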

Other observations

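Other cell types that fat pads and the male tract can hold were read from marker lists in eWAT, knockout-labelled against wild-type-labelled. Of 7 mesothelium markers 1 was called lower by edgeR and 0 higher, which is near the 12.2% of all genes called, with 3 at an unadjusted p under 0.05 and a median log2 fold change of 0.80. The list of seminal vesicle and prostate markers held 8 genes, of which 2 were tested and 0 called by edgeR, with 0 at an unadjusted p under 0.05, and it took at most 0.00147% of counts in any library.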
